A study of Mus musculus with 12 samples.

Results

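Distal accessible regions that both extinction libraries held and 1 control library lacked were described in activated neurons of the mouse infralimbic prefrontal cortex. They were chosen from ATAC-seq peak lists, in which a transposase cuts open DNA and a peak marks a region cut more often than its surroundings. A member is a peak of extinction (EXT) replicate 2 on chromosomes 1 to 19, longer than 170 bp, that overlapped a peak longer than 170 bp in EXT replicate 1, overlapped no peak of retention control (RC) replicate 3, and lay more than 1 kb from either end of every RefSeq protein-coding or lncRNA gene. Of the 123375 peaks of EXT replicate 2, 121469 lay on chromosomes 1 to 19, 82502 of those were longer than 170 bp, and 65724 of those were distal to gene ends. Of these 65724 distal peaks, 23276 overlapped a peak over 170 bp of EXT replicate 1, and 4201 of them, 6.39% of the distal peaks, overlapped no RC replicate 3 peak and are the members. These lists chose the members, so the counts describe the choice and carry no test.

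The mice were adult male C57BL/6 animals aged 10 to 12 weeks, and all of them had been fear conditioned with 3 pairings of a tone and a foot shock in a first context. A day later the EXT mice heard 60 tones in another context, and the RC mice spent an equal time there with 0 tones; tissue was taken straight afterwards. Each library was a pool of 5 infralimbic cortices, from which 50000 cells sorted for NeuN and Arc were used, so a replicate is a pool and the spread between mice cannot be seen. The analysed lists were those of EXT replicates 1 and 2 and of RC replicates 1, 2 and 3. EXT replicate 3 was not analysed here. The list taken as EXT replicate 2 is so named by its sample title, while its deposited name carries the number 3; the identity of that library rests on the title.

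Distal open regions include enhancers, stretches of DNA to which transcription factors bind and from which they act on promoters that can lie far away. In neurons, activity opens some of these elements within the time of a behavioural session, through factors such as AP-1, a dimer of Fos and Jun proteins, and CREB. NeuN, the protein used in the sort, is the product of Rbfox3 and marks the nuclei of most neurons, and Arc is an immediate early gene product made by neurons that have recently been active. Extinction is a form of learning in which repeated tones without shock reduce the fear response, and the infralimbic cortex is known for its part in it.

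The libraries held 65.0 M and 57.7 M tags for EXT replicates 1 and 2, and RC replicates 1, 2 and 3 held 69.1 M, 68.9 M and 73.8 M. The lists of EXT replicates 1 and 2 and of RC replicate 3 covered the genome, with 80735, 123375 and 97961 peaks. For RC replicate 1 the peaks used here end at position 166286196 of chromosome 1, and for RC replicate 2 at position 37624379. The label "in both EXT lists only" was therefore set by 1 complete RC list, and the remaining RC lists could be read on chromosome 1 only. Peak lists hold no expression, and peaks at marker genes did not separate cell types: 11 and 12 of 12 excitatory neuron markers had a peak within 1 kb of their span in EXT replicates 1 and 2 and 11 in RC replicate 3, and for 14 astrocyte markers these numbers were 11, 12 and 13. In the same lists and order they were 13, 13 and 12 of 16 inhibitory neuron markers, 10, 11 and 11 of 15 oligodendrocyte markers, 11, 10 and 9 of 15 microglia markers and 10 in each of 13 endothelial markers. Sst and Vip, interneuron peptide genes, and Aqp4, an astrocyte water channel gene, had no such peak in any of the 3 complete lists.

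A few members covered annotated starts inside genes, and their sequence is shown because these are the members whose DNA ties them to a named transcript. Of the 4201 members, 39 overlapped 44 of the 32851 RefSeq windows that run from 250 bases before to 50 bases after a start, and 11 of the 44 windows lay wholly inside the EXT replicate 2 peak. The share of all distal peaks at such windows is not given here, so these counts cannot be read as a trait of the members. Aff1, Mest and Sema4a had a window wholly inside the peaks of both EXT lists, and Zap70 is shown because, of the windows on the stretch of chromosome 1 that all 5 lists reached, its window lay wholly inside the EXT replicate 2 peak. The other window on that stretch, of Tmem14a, lay in the peak in part. Aff1 encodes a scaffold of a transcription elongation complex, Mest is an imprinted gene expressed from the paternal copy, Sema4a encodes a semaphorin, a signal in axon guidance and immune contacts, and Zap70 encodes a kinase of T-cell receptor signalling. These genes were chosen by position after the lists were seen. Each window is given 5′ to 3′ on its own strand, from RefSeq on GRCm38.p6, the build also called mm10; capitals mark the E-box letters CANNTG, and neither TGANTCA nor TGACGTCA occurs in the 4 windows.
Aff1 start window, chr5:103753912-103754211, plus strand: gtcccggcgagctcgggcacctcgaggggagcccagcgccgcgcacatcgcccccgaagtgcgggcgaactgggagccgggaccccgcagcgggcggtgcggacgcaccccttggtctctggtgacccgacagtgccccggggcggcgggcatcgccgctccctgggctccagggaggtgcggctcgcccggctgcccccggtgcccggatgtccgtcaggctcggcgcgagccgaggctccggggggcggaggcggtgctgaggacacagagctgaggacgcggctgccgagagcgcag
Mest start window, chr6:30737800-30738099, plus strand: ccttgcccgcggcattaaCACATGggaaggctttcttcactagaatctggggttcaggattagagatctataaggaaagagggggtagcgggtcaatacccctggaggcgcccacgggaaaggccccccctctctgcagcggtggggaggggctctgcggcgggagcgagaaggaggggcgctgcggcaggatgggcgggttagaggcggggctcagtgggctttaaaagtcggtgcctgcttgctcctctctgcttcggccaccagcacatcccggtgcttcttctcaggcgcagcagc
Sema4a start window, chr3:88458835-88459134, minus strand: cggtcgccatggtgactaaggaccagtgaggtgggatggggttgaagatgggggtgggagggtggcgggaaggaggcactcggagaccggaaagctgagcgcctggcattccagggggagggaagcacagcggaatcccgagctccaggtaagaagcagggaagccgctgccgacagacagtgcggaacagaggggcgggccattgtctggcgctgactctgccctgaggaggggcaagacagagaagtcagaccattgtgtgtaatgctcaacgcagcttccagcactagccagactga
Zap70 start window, chr1:36764265-36764564, plus strand: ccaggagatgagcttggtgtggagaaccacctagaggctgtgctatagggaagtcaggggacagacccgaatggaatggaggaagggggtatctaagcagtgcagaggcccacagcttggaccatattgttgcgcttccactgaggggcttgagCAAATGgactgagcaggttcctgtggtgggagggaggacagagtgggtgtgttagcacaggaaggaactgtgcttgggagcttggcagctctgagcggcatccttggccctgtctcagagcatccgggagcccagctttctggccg

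The member at the Aff1 window spanned chr5:103753796-103754342 and had a fold enrichment over local background of 5.57 in EXT replicate 1 and 4.88 in EXT replicate 2. The Mest member, at chr6:30737717-30738375, had folds of 3.34 and 4.07 in EXT replicates 1 and 2, and the Sema4a member, at chr3:88458811-88459329, had 3.43 and 5.03. The nearest RC replicate 3 peak lay 988 bp from the Aff1 member, 535 bp from the Mest member and 7721 bp from the Sema4a member. The Zap70 member is the one of these that other RC lists reached, and both of them held a peak there. Its fold was 3.13 and 5.31 in EXT replicates 1 and 2, and 5.19 and 6.81 in RC replicates 1 and 2, with no peak in RC replicate 3. Each fold is the authors' value within its own list.

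Among all 44 overlapped windows, the AP-1 letters TGANTCA were found in 1, that of Rps6ka4, which encodes a stress-activated kinase that acts on CREB and histone H3. That is 2.27% of these windows, against 7.81% of all windows in the table. The cyclic AMP response element letters TGACGTCA were found in 0 of the 44, against 1.79% of all windows, and the E-box letters CANNTG in 33 of 44, or 75%, against 72.3% of all windows. Both strands were searched; TGANTCA and CANNTG may share the letters CA, and all 3 motifs read the same on either strand apart from N. A match describes letters in these windows, most of which reach beyond the peak, and says nothing of binding. The rest of the members' sequence was not used here.

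MicroRNA genes were also covered by a few members. These are short RNAs that pair with messenger RNAs through a seed, bases 2 to 8 from the 5′ end, and members overlapped 5 annotated microRNA genes, Mir30c-1, Mir7685, Mir3092, Mir6353 and Mir6361. How many of all distal peaks overlapped a microRNA gene is not given here, so this count describes the members alone. The hairpins of Mir30c-1 and Mir6361 lay wholly inside the EXT replicate 2 peak. The mature forms shown are 3 of Mir30c-1 and Mir7685 that lay wholly inside that peak, credited to RefSeq on GRCm38.p6, with the seed in capitals; no seed was shared among them.
mmu-miR-30c-5p, chr4:120769584-120769606, minus strand: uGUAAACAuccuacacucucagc
mmu-miR-30c-1-3p, chr4:120769546-120769567, minus strand: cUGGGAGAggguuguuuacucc
mmu-miR-7685-5p, chr2:158243542-158243565, minus strand: aCCUUCCGguuucuucaagucucc

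The Mir30c-1 hairpin, which gives the miR-30c arms and lies within Nfyc, lay wholly inside the EXT replicate 2 peak but outside the overlapping EXT replicate 1 peak. That member had folds of 3.18 and 2.95 in EXT replicates 1 and 2. The mature miR-7685-5p lay inside the peaks of both EXT lists, with folds of 2.83 and 3.58. These 2 members therefore differ in whether the EXT lists share the microRNA bases themselves.

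The lists of RC replicates 1 and 2, which had no part in choosing, held peaks at most of the chromosome 1 members they reached. RC replicate 1 held a peak at 192 of the 229 members on its stretch of chromosome 1, or 83.8% (exact 95% binomial interval 78.4 to 88.4), against 74.3% of all 3480 distal EXT replicate 2 peaks there. RC replicate 2 held a peak at 40 of the 47 members on its shorter stretch, or 85.1% (71.7 to 93.8), against 75.5% of the 656 distal peaks there. On that shorter stretch RC replicate 1 also held 40 of the 47 members, against 72.7% of the distal peaks. The label that these regions are found in EXT lists only thus went against both RC lists that could be read, and the regions are called here by their rule. With both EXT lists required but the peaks counted in EXT replicate 1, RC replicates 1 and 2 held 84.0% and 84.3%. The shares were lower when only 1 EXT list made the choice. Without EXT replicate 2, that is for distal EXT replicate 1 peaks absent from RC replicate 3, RC replicate 1 held 43.1% and RC replicate 2 held 45.0%. Without EXT replicate 1, that is for distal EXT replicate 2 peaks absent from RC replicate 3, they held 58.1% and 61.7%. Intervals cover counting error only, and neighbouring members of 1 library are not independent.

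The share of members in RC replicate 1 lay close to that of the distal peaks that EXT replicate 2 shared with RC replicate 3 but not with EXT replicate 1. Of those, 505 of 580, or 87.1% (84.1 to 89.7), had a peak in RC replicate 1. Distal peaks held by EXT replicate 2 and by neither of the other complete lists had a share of 53.6% (813 of 1518; 51.0 to 56.1), and those of all 3 complete lists one of 96.0% (917 of 955; 94.6 to 97.2). The interval of the members overlapped that of the first of these classes and neither of the others. The same order held in RC replicate 2, with 85.1% of members, 88.7% of peaks shared with RC replicate 3 but not EXT replicate 1, 57.8% of peaks in EXT replicate 2 only and 94.7% of peaks in all 3 complete lists. The comparator with the same number of lists is close in strength to the members, with a median fold of 4.01 in EXT replicate 2 against 3.97 for members over the genome.

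**Figure D1:**
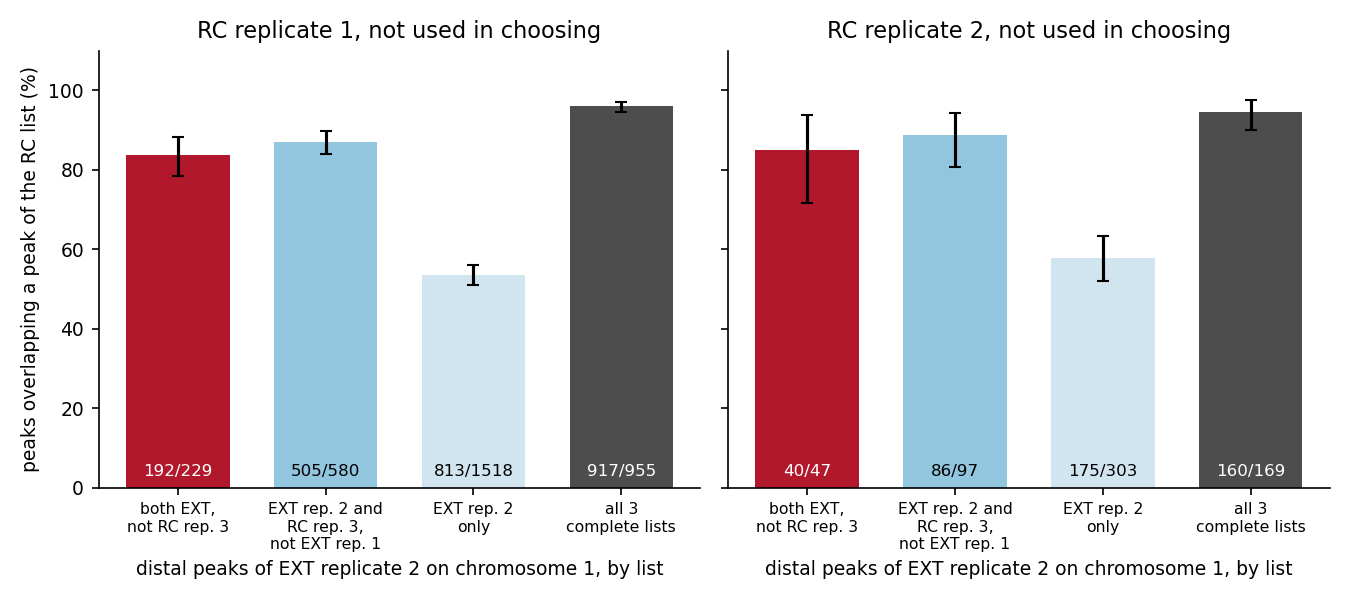
Share of distal EXT replicate 2 peaks on chromosome 1 that overlap a peak of RC replicate 1 (left) or RC replicate 2 (right), in percent, by which of the complete lists hold them. Bars are shares, error bars exact 95% binomial intervals and the fractions give the counts. Members, at 83.8% and 85.1%, stand far above peaks of EXT replicate 2 only, at 53.6% and 57.8%. They stand close to peaks shared with RC replicate 3 but not EXT replicate 1, at 87.1% and 88.7%.

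Presence in RC replicate 1 followed the strength of the member. With all distal EXT replicate 2 peaks on that stretch cut into 4 equal bins by fold, RC replicate 1 held 40 of 57 members of the lowest bin (70.2%), 47 of 57 of the next (82.5%), 55 of 64 of the one above (85.9%) and 50 of 51 of the highest (98.0%). In the same bins it held 41.5%, 51.1%, 68.5% and 89.6% of the peaks of EXT replicate 2 only. The share of members was larger than that of these peaks in all 4 bins. Peaks that EXT replicate 2 shared with RC replicate 3 but not EXT replicate 1 had 70.5%, 84.9%, 93.1% and 98.2%. Those of all 3 complete lists had 77.0%, 88%, 97.0% and 99.6%. Members did not exceed either of these classes in any bin, and the strongest members were nearly all found. The 192 members present in RC replicate 1 had a median fold of 3.22 in EXT replicate 1 and 4.30 in EXT replicate 2, and the 37 absent from it had 3.04 and 3.56.

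In RC replicate 1 these regions were ordinary peaks of that list. At the 192 members its own peaks had a median fold of 4.00 and a median length of 338.5 bp. Their median within-list percentile of fold, where 0 is the weakest peak and 100 the strongest, was 52.2 in RC replicate 1. For the same members it was 32.5 in EXT replicate 1 and 46.2 in EXT replicate 2.

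The part of chromosome 1 that all 5 lists reached shows this region by region. Of its 47 members, 37 were found in both RC replicates 1 and 2, 3 in RC replicate 1 only, 3 in RC replicate 2 only and 4 in neither. Their folds ran from 2.57 to 5.31 (median 3.28) in EXT replicate 1, while EXT replicate 2 gave 2.45 to 8.89 (median 3.83). Where a peak was present, they ran from 2.47 to 6.88 in RC replicate 1 (median 4.02) and from 2.60 to 10.9 in RC replicate 2 (median 4.53). The ranges of EXT and RC lists overlapped, and RC replicate 3 has no peak at any of them by rule.

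**Figure D2:**
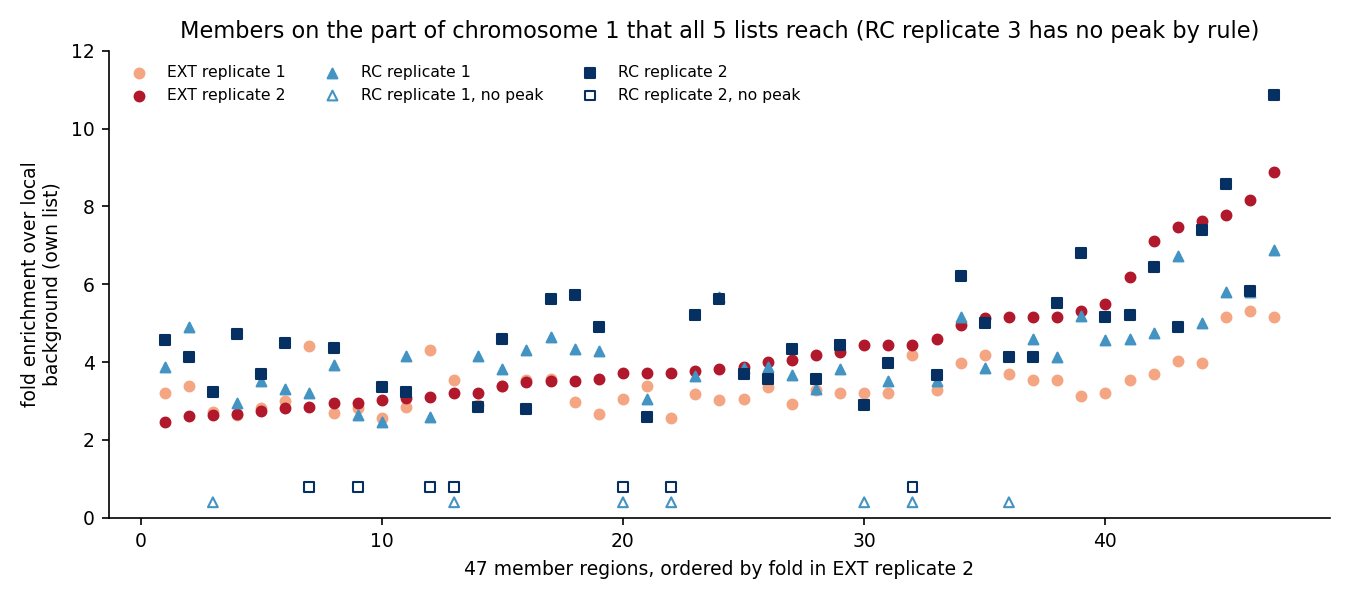
Fold enrichment over local background of the 47 members on the stretch of chromosome 1 that all 5 lists reach, ordered by their fold in EXT replicate 2. Circles are EXT lists, filled triangles and squares RC replicates 1 and 2, and open symbols near 0 mark a member with no peak in that RC list; 40 of 47 members have a filled triangle and 40 of 47 a filled square.

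The strongest member of this stretch by EXT replicate 2 fold lay between genes, 16931 bp from Il17f, which encodes an interleukin of inflammatory T cells. At chr1:20759725-20760215 its fold was 5.15 and 8.89 in EXT replicates 1 and 2, and 6.88 and 10.9 in RC replicates 1 and 2. All 4 lists thus held a clear peak there, and each fold is set against that list's own background. A member 12765 bp from Lman2l, which encodes a lectin of the secretory pathway, was alike, with 5.16 and 7.78 in EXT replicates 1 and 2 and 5.81 and 8.59 in RC replicates 1 and 2. A member 46133 bp from Phf3, at chr1:30755904-30756209, had 3.98 and 7.64 in EXT replicates 1 and 2 and 5.02 and 7.40 in RC replicates 1 and 2. Here an RC replicate 3 peak lay 54 bp away, so the rule's edge decided its place among the members.

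Of the 47, 32 lay in protein-coding genes of many kinds. Rims1 encodes a scaffold of the presynaptic active zone; 1 member lay inside it and 2 lay nearest to it. The one inside, at chr1:22789501-22789822, had folds of 2.99 and 3.53 in EXT replicates 1 and 2 and 4.34 and 5.73 in RC replicates 1 and 2. Kcnq5 encodes a subunit of the M-current potassium channel, and its member, at chr1:21552725-21553361, had 3.18 and 3.77 in the EXT lists and 3.64 and 5.21 in RC replicates 1 and 2. Kcnb2, which encodes a delayed-rectifier potassium channel, had a member with 3.28 and 4.60 in the EXT lists and 3.52 and 3.68 in RC replicates 1 and 2. Every one of these regions had a peak in each of the 4 lists other than RC replicate 3.

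Dst, which encodes dystonin, a large linker of the cytoskeleton, held 5 of the 47 members, and all 5 had peaks in RC replicates 1 and 2. Their folds lay between 2.70 and 3.99 in EXT replicate 1, and between 2.82 and 4.96 in EXT replicate 2, against 3.31 to 5.15 in RC replicate 1 and 2.86 to 6.22 in RC replicate 2. Adgrb3, which encodes an adhesion receptor at synapses, held 2 members and was the nearest gene of 1 more. Its member at chr1:25281368-25281707 had 3.38 and 3.73 in EXT replicates 1 and 2 and 3.06 and 2.60 in RC replicates 1 and 2. Its member at chr1:25682210-25682450 had 2.66 and 3.55 in the EXT lists and 4.28 and 4.89 in RC replicates 1 and 2. The EXT folds lay above the RC folds at the one and below them at the other, within 1 gene; folds come from separate backgrounds and were not tested. Arhgef4, a guanine exchange factor gene, held a member only 39 bp from an RC replicate 3 peak, with 3.02 and 3.83 in the EXT lists and 5.67 and 5.63 in RC replicates 1 and 2.

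The 4 members with no peak in any RC list were the ones that kept to the label. They lay in Xkr4 at chr1:3216201-3216405, in Sntg1 at chr1:9127491-9127706, 22358 bp from Crisp4 at chr1:18168260-18168562, and 426318 bp from Gm597 at chr1:28349574-28349804. Sntg1 encodes a syntrophin, an adaptor of the dystrophin complex in neurons, and Crisp4 a secreted protein of the epididymis. Their folds in EXT replicates 1 and 2 were 3.06 and 3.73 for Xkr4, 3.54 and 3.20 for Sntg1, 4.18 and 4.44 near Crisp4, and 2.57 and 3.73 near Gm597. All 4 pairs of values lay within the folds of members that RC replicates 1 or 2 did hold. Their nearest RC replicate 3 peak was 15234 bp away or farther.

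Members found in 1 of the RC lists included a pair in the same gene. Stau2, which encodes an RNA-binding protein of dendritic RNA transport, had a member at chr1:16231530-16231766 that RC replicate 2 held with a fold of 2.91 and RC replicate 1 lacked. Its other member, at chr1:16503463-16503790, was held by RC replicate 1 with 2.60 and lacked by RC replicate 2. Their folds were 3.22 and 4.44 for the first in EXT replicates 1 and 2, and 4.31 and 3.10 for the other. Lmbrd1 and Mgat4a held the other members found in RC replicate 1 only, and Smap1 and Col19a1 those found in RC replicate 2 only.

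To look at the same question with lists that did not choose, distal peaks were taken from 1 EXT list against RC replicate 3 and then looked up in the EXT list and in the RC lists left over. Of 151 such peaks of EXT replicate 1 on the stretch all lists reached, EXT replicate 2 held 37.7% (30.0 to 46.0), RC replicate 1 43.7% (35.7 to 52.0) and RC replicate 2 45.0% (36.9 to 53.3). Over all distal EXT replicate 1 peaks there, these lists held 68.2%, 69.6% and 70.1%. The remaining EXT list thus held no larger share than the RC lists. With an overlap of at least 50% of both peaks, EXT replicate 2 held 25.7%, between RC replicate 1 with 27.2% and RC replicate 2 with 21.4%. The share of all distal peaks was not computed with that overlap.

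In the choice from EXT replicate 2 the EXT list left over also held the smallest share, but it did so over all distal peaks too. Of its 366 distal peaks absent from RC replicate 3, EXT replicate 1 held 17.2% (13.5 to 21.5), RC replicate 1 57.7% (52.4 to 62.8) and RC replicate 2 61.7% (56.6 to 66.8). The same lists held 39.0%, 72.7% and 75.5% of all distal EXT replicate 2 peaks there. How much of the gap goes with the short list of EXT replicate 1 was not tested. On the longer stretch that RC replicate 1 reached, EXT replicate 1 held 16.6% of 1821 such peaks, against 39.7% of all distal peaks, and RC replicate 1 held 58.1%. For 727 such peaks of EXT replicate 1 on that stretch, EXT replicate 2 held 37.4%, against 68.9% of all distal peaks, and RC replicate 1 held 43.1%, against 70.9%. With 1 EXT list and at most 2 RC lists left over, no test of the groups was possible.

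**Figure D3:**
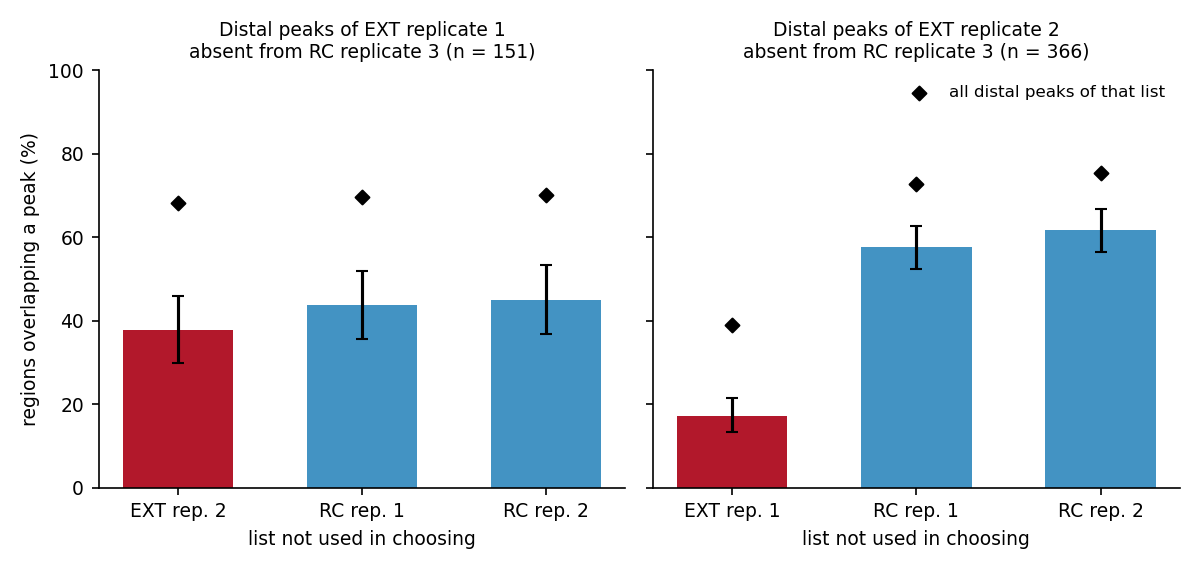
Distal peaks of EXT replicate 1 (left, 151) and EXT replicate 2 (right, 366) absent from RC replicate 3, on the stretch all lists reach, and the share in percent held by each list not used in choosing. Bars are shares with exact 95% binomial intervals and diamonds the share of all distal peaks of that EXT list. The EXT bar, at 37.7% and 17.2%, is the lowest of each panel, and so is its diamond, at 68.2% and 39.0%.

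The lists also differed in how many distal peaks they held. On the stretch all lists reached, EXT replicates 1 and 2 held 358 and 656 distal peaks over 170 bp, and RC replicates 1, 2 and 3 held 718, 736 and 390. EXT replicate 1 and RC replicate 3 were the short lists, and they stood in different groups. The means were 507 ± 211 in EXT (SD, n = 2) and 615 ± 195 in RC (SD, n = 3), a log2 difference, as the mean of log2 numbers in EXT minus RC, of -0.29. A two-sided exact permutation test over the 10 ways to part 5 libraries gave p = 0.5, where 0.1 is the smallest it can give. Without EXT replicate 1 that difference was 0.15, so 1 library set its sign. The choice was repeated with the 3 complete lists each cut to their 80735 best peaks by q. It gave 3750 members, of which RC replicate 1 held 91.5% and RC replicate 2 held 95% on their stretches. The lists of RC replicates 1 and 2 were not cut. The share of all distal peaks was not computed at this setting, so the rise cannot be read as a result about the members.

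The same pattern, 2 lists of the 3 complete ones and not the third, was counted for the other pairs. EXT replicate 2 and RC replicate 3 without EXT replicate 1 gave 9069 distal peaks over 170 bp in both lists. That was 13.8% of the 65724 distal EXT replicate 2 peaks, against 6.39% for the 4201 members. RC replicate 3 with EXT replicate 1 and without EXT replicate 2 gave 2214, or 5.16% of 42894 distal RC replicate 3 peaks. RC replicate 1 held 87.7% of the 471 chromosome 1 peaks of the pair that mixes the groups through EXT replicate 2. It held 35.8% of the 109 of the pair that lacks EXT replicate 2, which are peaks of RC replicate 3. The share of all distal RC replicate 3 peaks in RC replicate 1 is not given here, so the shares of these pairs cannot be compared. The pair from the same group was not the commonest. EXT replicate 1, the list absent from the commonest pair, held the fewest distal peaks over 170 bp of the complete lists, 35819. The part of list length in these counts was not tested.

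Members were shorter and weaker than the distal peaks of all 3 complete lists. In EXT replicate 2 their median length was 310 bp, against 464 bp for the 19075 distal peaks of all 3 complete lists, and their median fold was 3.97 against 5.78. In EXT replicate 1 the overlapping peaks had a median length of 248 bp against 330 bp and a median fold of 3.13 against 3.62. The summit pileup, the number of tags stacked at the highest point, was 31 at the median member in EXT replicate 2 and 23 in EXT replicate 1, against 57 and 32 for peaks of all 3 lists. By fold, 2261 members, or 53.8%, stood in the lower 50% of both EXT lists and 0 stood in the upper 10% of both. These values come from the lists that chose the members and are given as a description.

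**Figure D4:**
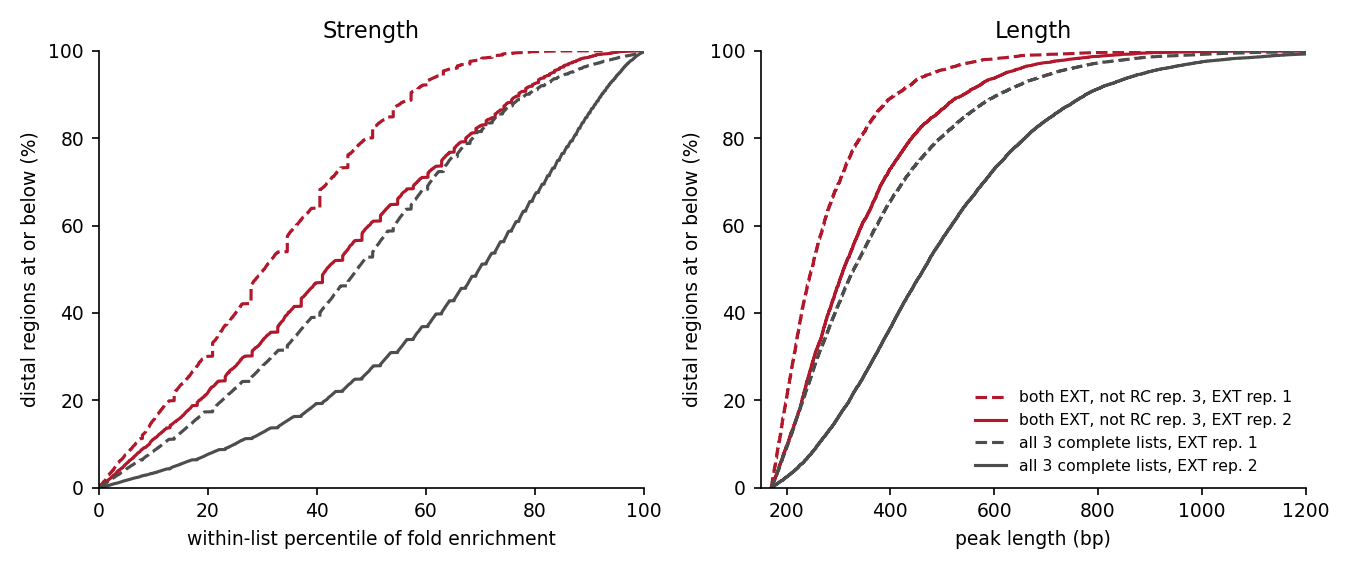
Cumulative share, in percent, of members (red) and of distal peaks in all 3 complete lists (grey) by within-list percentile of fold (left) and by peak length in bp (right), in EXT replicate 1 (dashed) and EXT replicate 2 (solid). Members lie to the left in both panels, with median lengths of 248 bp and 310 bp against 330 bp and 464 bp.

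The EXT peaks behind a member did not always mark the same bases. Of the members, 4182 met 1 EXT replicate 1 peak and 19 met more than that, and the median overlap was 203 bp. In 2858, or 68.0%, the overlap covered at least 50% of both peaks. The summits lay within 100 bp of each other in 2745 members, or 65.3%, with a median gap of 64 bp.

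Median folds at the rule's edges were nearly equal at the length limit and somewhat higher inside than outside at the others. These differences were not tested. The 126 members at most 10 bp longer than the 170 bp limit had a median fold of 3.27 in EXT replicate 2, and the 136 peaks in the 10 bp up to that limit that met the other conditions had 3.28. The 141 members at most 500 bp beyond the 1 kb limit from a gene end had 3.67, and the 246 otherwise alike at 500 to 1000 bp had 3.42. The 39 members with an RC replicate 3 peak within 50 bp had 3.23, and the 75 regions left out for an RC replicate 3 overlap of under 50 bp had 3.11.

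Many members lay near an RC replicate 3 peak that they did not touch. The median gap was 4949 bp; 495 members, or 11.8%, lay within 500 bp, and 841, or 20.0%, within 1 kb. Within 10 kb lay 3022, or 71.9%. The chromosome 1 share in RC replicate 1 was 84.8% among members with no RC replicate 3 peak within 500 bp.

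**Figure D5:**
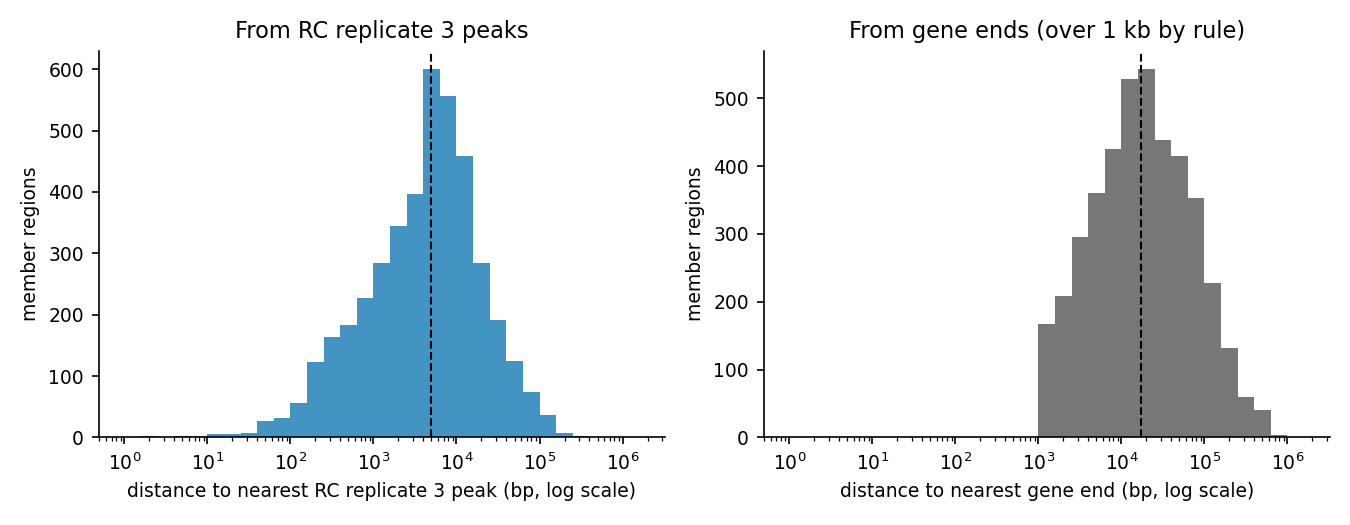
Number of members by distance in bp, on log axes, to the nearest RC replicate 3 peak (left) and to the nearest end of a protein-coding or lncRNA gene (right). Dashed lines mark the medians, 4949 bp and 17371 bp; the right panel starts above 1 kb by rule.

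Most members lay inside genes, away from their ends. Of the 4201, 2521 or 60.0% (58.5 to 61.5) lay in the span of a protein-coding gene, against 64.7% (64.0 to 65.4) of distal peaks in all 3 complete lists and 64.2% of all distal EXT replicate 2 peaks. Another 247, or 5.88%, lay in a lncRNA gene only, against 5.82% of peaks in all 3 lists, and 1433, or 34.1%, lay between genes, against 29.5%. The share between genes was larger for members, with intervals of 32.7 to 35.6 against 28.8 to 30.1. These intervals cover counting error only, neighbouring peaks are not independent, and the difference was not tested. Those between genes had a median distance of 33208 bp to the nearest protein-coding gene, and 51 lay over 500 kb from one. By chromosome, members made up 5.56% of the distal peaks at the lowest, on chromosome 8, and 7.20% at the highest, on chromosome 2.

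Members were spread over many genes. They lay in 1796 protein-coding genes, 20.1% of the 8944 that held any distal EXT replicate 2 peak; 1349 of them held 1 member, 283 held 2 and 164 held 3 or more. The host genes were long, with a median span of 106 kb, against 43.5 kb for genes with a distal peak and 17.5 kb for all 20665 protein-coding genes of chromosomes 1 to 19. Genes that held a member were thus longer, and the part of length in the lists of host genes was not tested.

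The 5 genes with most members were long neuronal genes. Nav3, which encodes a neuron navigator protein of growing axons, held 10 members of its 73 distal peaks, where folds ran from 2.41 to 3.76 in the list of EXT replicate 1 and from 2.45 to 4.71 in that of EXT replicate 2. Opcml, which encodes a cell adhesion molecule of the IgLON family, held 10 of 108, with folds of 2.34 to 3.22 and 2.48 to 4.92. Lsamp, of the same family, held 8 of 86, with 2.96 to 3.53 and 3.56 to 6.04. Dlg2 encodes PSD-93, a scaffold under postsynaptic receptors, and held 8 of 142, or 5.63%, which is below the 6.39% of all distal peaks. Agbl4, which encodes an enzyme that trims glutamate chains from tubulin, held 8 of 32, or 25%, with folds of 2.74 to 4.67 in the first EXT list and 3.56 to 9.76 in the other.

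Lists of neuronal genes held members at shares on both sides of the background. Genes of calcium channels and kinase signalling held 57 of their 777 distal peaks as members (7.34%) in 19 of 30 genes, led by Pde10a, a cyclic nucleotide phosphodiesterase, with 6 and by Camk1d and Prkca, both protein kinases, with 5 each. Potassium channel genes held 26 of 404 (6.44%) in 15 of 23 genes, led by Kcnh1 with 5. Synaptic adhesion and scaffold genes held 40 of 900 (4.44%) in 14 of 25 autosomal genes, led by Dlg2 with 8 and by Nrxn3, a presynaptic adhesion gene, and Ptprd, a receptor phosphatase gene, with 5 each. The range over these 3 lists thus lay on both sides of the 6.39% of all distal peaks.

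Receptor genes for the main transmitters also lay on both sides of the 6.39% of all distal peaks. Glutamate receptor genes held 18 of 376 distal peaks as members (4.79%) in 11 of 22 genes, with 3 each in Gria1, an AMPA receptor subunit gene, and in Grin2a and Grin2b, NMDA receptor subunit genes. GABA-A receptor genes held 9 of 105 (8.57%) in 7 of 11 genes, with 2 each in Gabra4 and Gabrb1. The Gabrb1 member at chr5:72105032-72105323 was among the strongest of all, with folds of 6.12 and 10.3 in EXT replicates 1 and 2. Axon guidance genes held 20 of 371 (5.39%) in 14 of 31 genes, led by Ephb1, an ephrin receptor gene, with 3.

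Immediate early genes, the first to respond to neuronal activity, had few distal peaks. Of 28 such genes only Npas4, which encodes an activity-dependent transcription factor, held a member, 1 of the 40 distal peaks over the list or 2.5%, beside 6.39% of all distal peaks; with 1 member no difference can be read. These genes are short, with a median span of 7.57 kb, against 106 kb for the genes that hold a member. Cortical transcription factor genes held 20 of 325 (6.15%) in 10 of 27 genes, led by Myt1l, a factor that keeps neuronal identity, with 6, and by Mef2c and Tcf4 with 3 each.

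Marker genes of cell types held few distal peaks, and their members are few. Inhibitory neuron markers held 1 of 16 distal peaks as a member, in Pvalb, a calcium-binding protein gene. Among markers of cells that the sort should leave out, oligodendrocyte genes held 3 of 32, with 2 in Mbp and 1 in Cspg4, microglia genes 1 of 17, in Spi1, and endothelial genes 1 of 31, in Kdr. Astrocyte genes held 0 of 23. Against the 6.39% of all distal peaks these counts are too small to place, and the part of other cell types in the members was not tested.

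Single members prevailed over groups. With neighbours joined within 20 kb, 3652 members stood alone, 248 groups held 2, 15 held 3 and 2 held 4. The group at Ptgfrn, which encodes a membrane regulator of a prostaglandin receptor, ran over chr3:101036124-101062390 and held the strongest of these members, with folds of 4.24 and 8.51 in EXT replicates 1 and 2. The group of 3 in Dhx8, an RNA helicase gene of splicing, ran over chr11:101755943-101764226, with folds between 2.53 and 3.23 in EXT replicate 1, and between 2.58 and 5.42 in EXT replicate 2.

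The other group of 4 lay in Rbfox3, the gene of the NeuN protein used in the sort. It ran over chr11:118887207-118909833, with folds between 2.04 and 2.39 in EXT replicate 1, and between 1.90 and 2.70 in EXT replicate 2. Its pileups were high for such folds, between 45 and 57 tags in EXT replicate 1 and between 69 and 96 in EXT replicate 2, against medians of 23 and 31 over all members. These members thus rose little above a strongly cut surrounding, and the nearest RC replicate 3 peak lay 392 to 2163 bp away. Of the 78 distal peaks in Rbfox3, 5 were members, or 6.41%.

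The strongest members over both EXT lists lay near genes of varied roles. The highest mean percentile was at chr8:37150288-37150652, in the pseudogene Gm7319, with folds of 8.05 and 7.64 in EXT replicates 1 and 2, and an RC replicate 3 peak lay 150 bp away. A member 5965 bp from Plin2, a lipid droplet protein gene, had 5.63 and 12.7. Another, inside the lncRNA gene A730004F24Rik and 84136 bp from Tgfb2, a growth factor gene, had 4.67 and 16.5. In both of these the value of EXT replicate 2 was far above that of EXT replicate 1. That direction was common, as 3351 members, or 79.8% of all members, had a higher fold in EXT replicate 2. It is therefore not particular to the members near Plin2 and Tgfb2. A member 16452 bp from Oxtr, the oxytocin receptor gene, at chr6:112507487-112507995, had 5.28 and 9.95, and one in Kif26b, a kinesin gene, had 5.35 and 11.7. The others of the highest 10 lay in Gabrb1 and nearest to the protein-coding genes Cdkn2b, Atg10, Vdac1 and Sema6d. Those nearest to Cdkn2b, Atg10 and Sema6d lay inside the lncRNA genes Gm12610, Gm41014 and Gm39920. None of these 10 lay on the stretches of chromosome 1 that RC replicates 1 or 2 reached, so whether those libraries held them is not known here.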

How the data were processed

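Peaks of ATAC-seq libraries of EXT (2 lists) and RC (3 lists) were read as deposited. Per the file headers, each library had its own peak calling by the authors in MACS 2.2.4, without a control, with a tag shift of -75 bp, an extension to 150 bp, all duplicates and a q cutoff of 0.05, so peaks may rest on repeated tags. The deposited pileup is a coverage signal at the summit, in tags; fold enrichment is the authors' ratio to local background; −log10 p and −log10 q values were deposited with them. The submitters' processing notes name mm10 and BWA 0.7.17, HISAT2 2.1.0 and other tools; the aligner of the ATAC-seq reads is not stated there. Depth is given as tags from the headers. Replicates are pools of 5 mice.

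In Python 3.11.15 (pandas 2.3.3, NumPy 2.4.6, SciPy 1.17.1), 1 incomplete last line was dropped in each of the lists of RC replicates 1 and 2, and peaks were overlapped by at least 1 bp with each other and with 21887 protein-coding and 12727 lncRNA genes of RefSeq on GRCm38.p6. Overlap code was tested on simulated data. Shares carry exact 95% binomial (Clopper-Pearson) intervals, for counting error alone. The number of distal peaks was compared by exact permutation. Members, gene lists and naming rule (all members where every list reaches, the 10 strongest, the 5 richest genes, the 3 densest groups, up to 3 genes of each list) were chosen with earlier results of these data known. Alternatives were other overlaps, lengths, distances and list cutoffs, leaving out each library, and a replicate block. For lists of equal length, the 3 complete lists were cut to 80735 peaks by q, and those of RC replicates 1 and 2 stayed whole. The labels give no batch. The planned sequence around summits was replaced by RefSeq windows. The lncRNA capture libraries were not used here, and the member count of 1 marker list is not reported here.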

Additional observations from a re-analysis of the deposited data

How the results depend on the processing

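The number of members moved with the cutoffs: 2727 with −log10 q of at least 5, 6371 with no length minimum and 781 with lengths over 300 bp, and 12865 to 32756 when a library was left out of the choice. The share of chromosome 1 members in RC replicate 1 was 73.8% with an overlap of at least 50% of both peaks, 88.5% with the stricter list, 91.5% with lists of equal length, 74.3% with no length minimum and 93.0% with lengths over 300 bp, and 43.1% to 93.7% when a library was left out. The share in RC replicate 2 was 66.0% with the 50% overlap, 95% with equal lists and 45.0% to 92.6% when a library was left out. The share inside a protein-coding gene was 58.1% with the stricter list, 56.9% with equal lists, 57.9% with lengths over 300 bp, 62.3% over 5 kb from gene ends, and 63.2% to 66.0% when a library was left out. At the main setting, RC replicates 1 and 2 held 74.3% and 75.5% of all distal EXT replicate 2 peaks. Shares of all distal peaks were not computed with other overlaps, cutoffs, lengths or distances. Whether members stood above all distal peaks at those settings is therefore not known.

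For regions chosen from EXT replicate 1, the 50% overlap gave 25.7%, 27.2% and 21.4% in EXT replicate 2, RC replicate 1 and RC replicate 2, and the stricter list 54.2%, 59.3% and 57.6%; with no length minimum RC replicate 1 held 32.8%. For those chosen from EXT replicate 2, EXT replicate 1 held 10.4% with the stricter list; RC replicate 1 held 51.3% with the 50% overlap and 50.3% with no length minimum; RC replicate 2 held 51.7%, 69.8% and 53.2% with the 50% overlap, the stricter list and no length minimum. Shares of all distal peaks were not computed at these settings, and the cause of these moves was not tested.

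The log2 difference in the number of distal peaks, EXT minus RC, ran from -0.72 to 0.15 when a library was left out, and was reversed, at 0.15, without EXT replicate 1. Nothing in the labels says that equal replicate numbers pair EXT and RC libraries; with the number as a replicate block over the 2 shared numbers, the difference was -0.59.

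Reach is a limit: 3972 of the 4201 members have 1 RC list behind them. Lists give presence above the authors' cutoff, not tags per region, so no level was compared at regions without a peak.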
